A study of Mus musculus with 8 samples.

Results

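The genes described here are 10 core components and targets of the NRF2 antioxidant pathway, followed in mouse Sertoli cells over 12 h of exposure to bisphenol A (BPA). They are Nfe2l2, Keap1, Sqstm1, Gclc, Gclm, Hmox1, Nqo1, Srxn1, Txnrd1 and Osgin1. The members were all probe sets annotated with exactly 1 of these symbols, which gave 17 of the 20380 probe sets with a single symbol and 10 of the 12393 genes on the array. All 17 probe sets and all 10 genes passed the filter on low signals. The cells were TTE3, a Sertoli line derived from mice with a transgene for the SV40 large T antigen in a temperature-sensitive form, so they are 1 immortalized line and not primary Sertoli cells. All arrays came from cells given 0.2 mM BPA, for 0, 3, 6 or 12 h, with 2 Affymetrix Mouse Expression 430A arrays at each time. BPA is a building block of some plastics and resins. No array of cells kept without BPA for 3, 6 or 12 h was analysed here, so BPA and time in culture cannot be told apart in any change below.

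NRF2, the protein of Nfe2l2, is a transcription factor that binds antioxidant response elements as a heterodimer with a small MAF protein. In unstressed cells KEAP1 holds NRF2 in a ubiquitin ligase built on cullin 3, and NRF2 is degraded. Electrophiles and oxidants modify cysteines of KEAP1, NRF2 then accumulates, and genes of glutathione synthesis, thioredoxin reduction, quinone reduction and heme breakdown are transcribed. BACH1 and BACH2 compete with NRF2 for the same elements and MAF partners. Much of this control acts on protein, so the transcript of Nfe2l2 is not a measure of NRF2 activity.

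Each value is a linear signal of 1 probe set on 1 array as the authors made it, and changes are on the log2(signal + 7.9) scale with standard errors from a limma fit over all 8 arrays, which understates changes of low signals. A gene was called at a Benjamini-Hochberg adjusted p under 0.05 over the 8675 genes tested. A gene with several probe sets was read by the brightest of them, by mean log2 signal, and signals of different genes are not compared, since probe sets differ in brightness. Whether the 2 arrays at a time were separate cultures is not stated in the labels, so p-values measure only the spread between these arrays, which may be technical. Precision is limited by how few arrays there are. Of 13 Sertoli markers on the array 9 passed the filter, among them Sox9, Wt1, Gata4 and Clu, while Amh, Dmrt1, Cldn11 and Fshr did not. Sox9 was dim, at 26.2 to 187.3 over the 8 arrays, where the filter equals a signal of 47.6. It may have passed only through the times at which it rose. Of the markers of other cells, 1 of 4 Leydig, 1 of 6 germ cell, 2 of 4 peritubular and 3 of 4 macrophage genes passed, without the leukocyte marker Ptprc. The filter kept 8675 of all 12393 genes, so passing it does not by itself identify a cell type. The summed Sertoli marker signal was 7070.2 to 7611 at 12 h, against 10617.7 to 10918.3 at 0 h, a sum that Clu leads. Of the 9 Sertoli markers tested 3 rose at 12 h, Sox9, Gata4 and Tjp1, and 2 fell, Clu and Inhbb, at a median change of 0.41, and 0 markers of other cells were called. Of all genes tested 20.9% were called higher and 17.5% lower at 12 h. The sum of the macrophage markers, a cell type in which Hmox1 is high, was 556.2 to 627.9 at 12 h, against 548.3 to 615.9 at 0 h, and their part in the results was not tested. In RNA from whole cultures, fewer cells of a type and less RNA per cell cannot be told apart.

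The promoters of 8 of the 10 genes were found in the RefSeq table of build GRCm38.p6, in 10 windows because Txnrd1 has 3 listed starts; Hmox1 and Gclc were not in it. The 250 bases before each start were searched on both strands for TGACNNNGC, the core of the antioxidant response element, and for TGACTCA, the binding sequence of AP-1. A single stretch can match both when TGACTCA is followed by GC, but no window of these genes held such an overlap. This holds for the patterns as written, and variants of TGACNNNGC were not searched. The Srxn1 match that begins 45 bases before its start reads TGAGTCA followed by GC on the gene's strand. Whether that stretch is a variant of the antioxidant response element was not tested. TGACNNNGC was found for Nfe2l2, Gclm and 1 start of Txnrd1, against 10.2% of all 32851 windows, and TGACTCA for Srxn1 and Osgin1, against 4.46% of all windows. No match was found for Keap1, Sqstm1 and Nqo1, which says only that these letters are not in these windows. The 4 windows below are shown because they belong to a gene whose signal rose at some time and hold a match, which is in capitals; a match is a description and not a binding site. All are written 5′ to 3′ on the strand of the gene, up to the last base before the start.
Srxn1 (chr2:152105274-152105523, plus strand): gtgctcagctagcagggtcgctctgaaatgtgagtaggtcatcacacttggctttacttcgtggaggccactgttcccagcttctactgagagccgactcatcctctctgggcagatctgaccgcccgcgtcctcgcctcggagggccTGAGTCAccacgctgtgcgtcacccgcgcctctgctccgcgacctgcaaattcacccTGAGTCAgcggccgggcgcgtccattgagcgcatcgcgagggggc
Osgin1 (chr8:119436897-119437146, plus strand): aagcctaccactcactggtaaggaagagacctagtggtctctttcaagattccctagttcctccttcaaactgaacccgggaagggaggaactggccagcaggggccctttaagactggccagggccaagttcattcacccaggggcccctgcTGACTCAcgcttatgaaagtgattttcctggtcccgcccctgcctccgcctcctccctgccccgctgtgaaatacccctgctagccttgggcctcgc
Gclm (chr3:122245307-122245556, plus strand): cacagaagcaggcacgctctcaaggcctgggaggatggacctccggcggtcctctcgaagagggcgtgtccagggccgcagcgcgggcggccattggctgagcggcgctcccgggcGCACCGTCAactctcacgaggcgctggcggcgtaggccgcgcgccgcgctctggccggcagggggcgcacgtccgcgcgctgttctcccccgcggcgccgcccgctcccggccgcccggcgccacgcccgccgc
Nfe2l2 (chr2:75704664-75704913, minus strand): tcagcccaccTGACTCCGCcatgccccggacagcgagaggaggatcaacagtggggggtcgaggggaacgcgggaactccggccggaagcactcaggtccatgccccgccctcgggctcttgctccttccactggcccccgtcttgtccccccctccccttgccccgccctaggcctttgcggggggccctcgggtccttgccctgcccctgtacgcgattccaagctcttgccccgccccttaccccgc
Srxn1 has 2 matches, which begin 102 and 45 bases before its start and read TGAGTCA on the gene's strand. The match of Osgin1 begins 97 bases before its start, that of Gclm 134 bases and that of Nfe2l2 240 bases.

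The members did not move as a block. They and the role lists below were chosen with earlier results of these data known. Their counts beside the shares of all genes are therefore a description and not a test. Over the time course, 6 of the 10 genes changed by the moderated F test, against 35.8% of all genes tested: Nfe2l2, Sqstm1, Gclc, Hmox1, Srxn1 and Osgin1. At 3 h 2 of 10 rose and 0 fell, Nfe2l2 and Osgin1, where 12.1% of all genes were called, 8.55% higher and 3.53% lower (limma; at an unadjusted p under 0.05 3 were higher and 2 lower). At 6 h 4 rose, Keap1, Sqstm1, Hmox1 and Osgin1, and 1 fell, Nqo1, where 26.5% of all genes were called, 16.8% higher and 9.73% lower. At 12 h 6 rose and 0 fell (6 and 0 at an unadjusted p under 0.05), Sqstm1, Gclc, Gclm, Hmox1, Srxn1 and Osgin1, where 38.4% of all genes were called, 20.9% higher and 17.5% lower. Against the 0 h arrays, both arrays lay above for 6 genes and below for 2 at 3 h, where 34.7% of all genes lay above and 23.3% below. At 6 h 7 lay above and 2 below (36.6% and 25.4% of all genes), and at 12 h 8 lay above and 1 below (38.6% and 30.9% of all genes). The median change of the 10 was 0.21, 0.26 and 0.46 at 3, 6 and 12 h, against 0.06, 0.07 and 0.06 over all genes tested. These 3 comparisons share the 0 h arrays. Of the steps between treated times, 0 of 10 were called from 3 to 6 h (limma; 3 higher and 1 lower at an unadjusted p under 0.05; 1.12% of all genes called, 0.565% higher and 0.553% lower). From 6 to 12 h 3 rose and 0 fell, Sqstm1, Hmox1 and Srxn1 (5 and 0 at an unadjusted p under 0.05; 4.77% of all genes called, 0.922% higher and 3.85% lower).

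**Figure D1:**
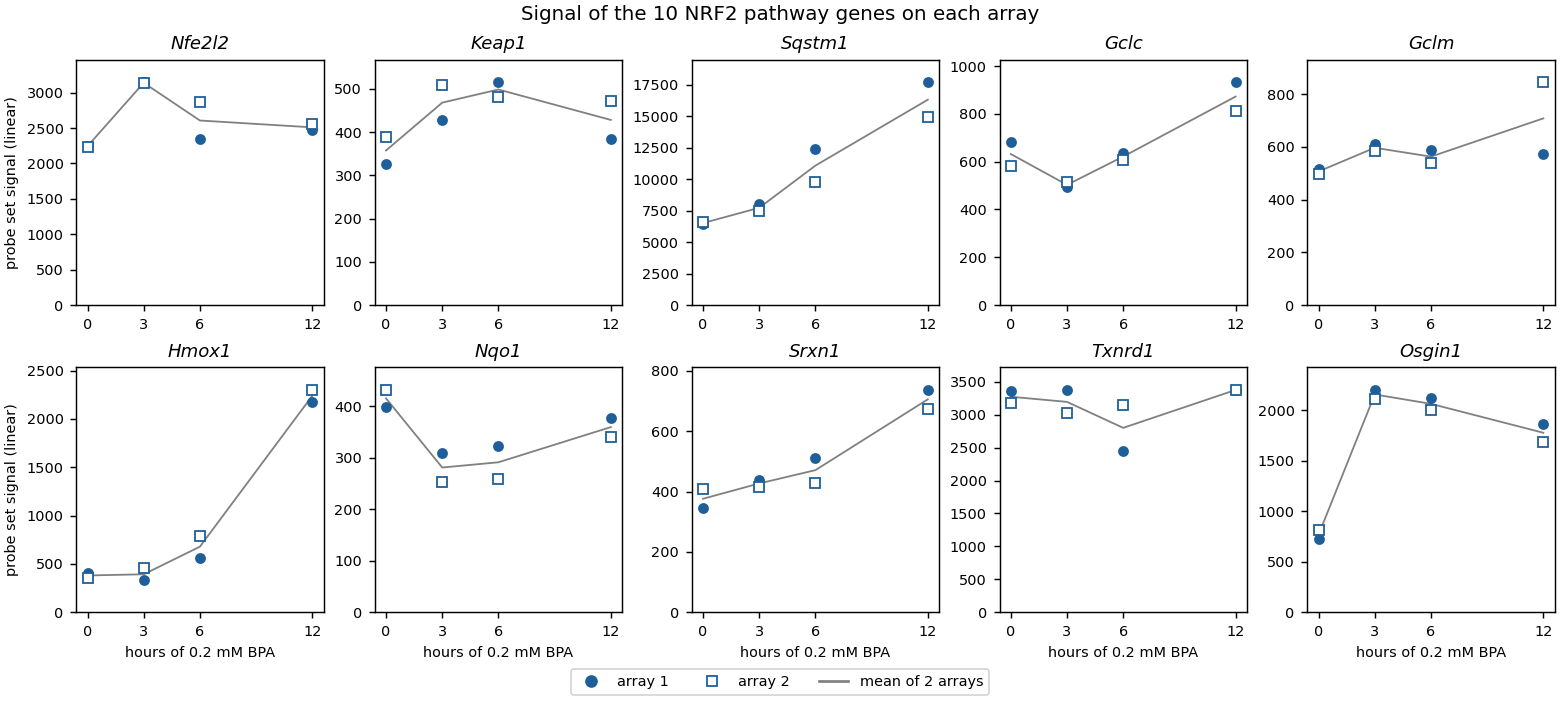
Probe set signal (linear axis from 0) of the 10 genes against hours of 0.2 mM BPA, with 1 symbol per array and a line through the means of 2 arrays. Hmox1 lies between 2176.5 and 2302.6 at 12 h, above all earlier arrays, Osgin1 is already at 2108.8 and 2204.4 at 3 h, and Nqo1 is lower on all treated arrays than on the 0 h arrays.

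The transcripts of NRF2 itself and of its inhibitor changed by small amounts. Nfe2l2 had signals of 2249.7 and 2237.7 at 0 h, 3144.8 and 3132.0 at 3 h, 2341.8 and 2870.1 at 6 h, and 2465.7 and 2553.2 at 12 h. The 3 h arrays were above all others, the 0 h arrays were the lowest, and the 6 and 12 h arrays overlapped. Nfe2l2 rose by 0.48 ± 0.11 at 3 h (adjusted p = 0.0152). Its changes of 0.21 ± 0.11 at 6 h and 0.16 ± 0.11 at 12 h did not pass the test (adjusted p = 0.212 and 0.299). The 3 h call was lost without replicate 1 or 2 at 0 h (adjusted p = 0.0972 and 0.104), without replicate 1 or 2 at 3 h (0.0913 and 0.0828), with arrays scaled to the same median (0.0674) and without the intensity trend (0.0763). Without replicate 1 at 6 h the change at 6 h was 0.35 and passed (0.0437).

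Keap1, which encodes the substrate adaptor that marks NRF2 for degradation, had signals of 326.0 and 389.2 at 0 h, 427.8 and 508.7 at 3 h, 515.2 and 482.1 at 6 h, and 385.0 and 471.5 at 12 h. The 3 and 6 h arrays lay above the 0 h arrays, and the 12 h arrays overlapped them. Keap1 rose by 0.48 ± 0.16 at 6 h (adjusted p = 0.0444), and its changes at 3 and 12 h were 0.38 ± 0.16 and 0.25 ± 0.16 (adjusted p = 0.153 and 0.242). The 6 h call was lost without any 1 of the 0 or 6 h arrays (adjusted p = 0.277 and 0.0643 without replicate 1 or 2 at 0 h, 0.155 and 0.0759 at 6 h). It was also lost with quantile normalization (0.103), the same median (0.109), no filter (0.0727), no intensity trend (0.0835) and the mean of both probe sets (0.0809). The other probe set of Keap1 was lower at 12 h, with 205.1 and 160.4 against 228.0 and 222.0 at 0 h, a difference of -0.30 that did not pass (adjusted p = 0.239).

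Sqstm1 encodes p62, an autophagy receptor that also binds KEAP1 and can draw it away from NRF2. Its signals were 6453.8 and 6568.2 at 0 h, 8015.0 and 7438.0 at 3 h, 12361.4 and 9792.9 at 6 h, and 17687.7 and 14934.2 at 12 h. Both arrays of each time lay above both arrays of the time before. Sqstm1 rose by 0.76 ± 0.13 at 6 h (adjusted p = 0.000868) and by 1.32 ± 0.13 at 12 h (adjusted p = 5.69e-06), a ratio of mean signals of 2.51. The change of 0.25 ± 0.13 at 3 h did not pass (adjusted p = 0.255). The step from 6 to 12 h, a rise of 0.56 ± 0.13, was called (adjusted p = 0.0269), but not without replicate 1 or 2 at 0 h (0.057 and 0.0563), replicate 2 at 6 h (0.103) or replicate 1 at 12 h (0.189). That step was also lost with no filter (0.0822), no intensity trend (0.14) or only the 6 and 12 h arrays in the fit (0.0953). The step from 3 to 6 h, 0.51 ± 0.13, passed without replicate 2 at 6 h and with quantile normalization (adjusted p = 0.0241 and 0.0205).

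Hmox1 had the largest change of the 10 genes at 12 h. It encodes heme oxygenase 1, which splits heme into biliverdin, carbon monoxide and iron, and it is also controlled by BACH1 and by other stress pathways. Hmox1 had signals of 404.0 and 358.3 at 0 h, 330.8 and 455.8 at 3 h, 566.7 and 791.2 at 6 h, and 2176.5 and 2302.6 at 12 h. The 0 and 3 h arrays overlapped, both 6 h arrays lay above them, and both 12 h arrays were higher again. Hmox1 rose by 0.80 ± 0.18 at 6 h (adjusted p = 0.00496) and by 2.53 ± 0.18 at 12 h (adjusted p = 3.35e-07), a ratio of mean signals of 5.88, while its change at 3 h was 0.03 ± 0.18 (adjusted p = 0.944). The step from 6 to 12 h was 1.73 ± 0.18 (adjusted p = 0.000254). The 6 h call was lost without replicate 2 at 0 h (adjusted p = 0.0534). The step from 3 to 6 h, 0.77 ± 0.18, missed the threshold (adjusted p = 0.0605) and passed without replicate 1 at 6 h (0.0332), with the same median (0.0471) and with the stricter filter (0.0484).

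Osgin1, which encodes an oxidative stress induced growth inhibitor, had a different time course. Its signals were 723.9 and 811.3 at 0 h, 2204.4 and 2108.8 at 3 h, 2124.1 and 2003.6 at 6 h, and 1867.5 and 1687.5 at 12 h. All treated arrays lay above the 0 h arrays, the 3 and 6 h arrays overlapped, and the 12 h arrays were lower than those of 3 and 6 h. Osgin1 rose by 1.48 ± 0.11 at 3 h (adjusted p = 1.82e-06), by 1.42 ± 0.11 at 6 h (adjusted p = 1.43e-06) and by 1.20 ± 0.11 at 12 h (adjusted p = 4.29e-06). The steps of -0.06 ± 0.11 from 3 to 6 h and -0.22 ± 0.11 from 6 to 12 h were not called (adjusted p = 0.867 and 0.315). At 3 h the mean signal of Osgin1 was already 2.81 times that at 0 h, while the 3 h arrays of Hmox1 lay on either side of its 0 h arrays.

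**Figure D2:**
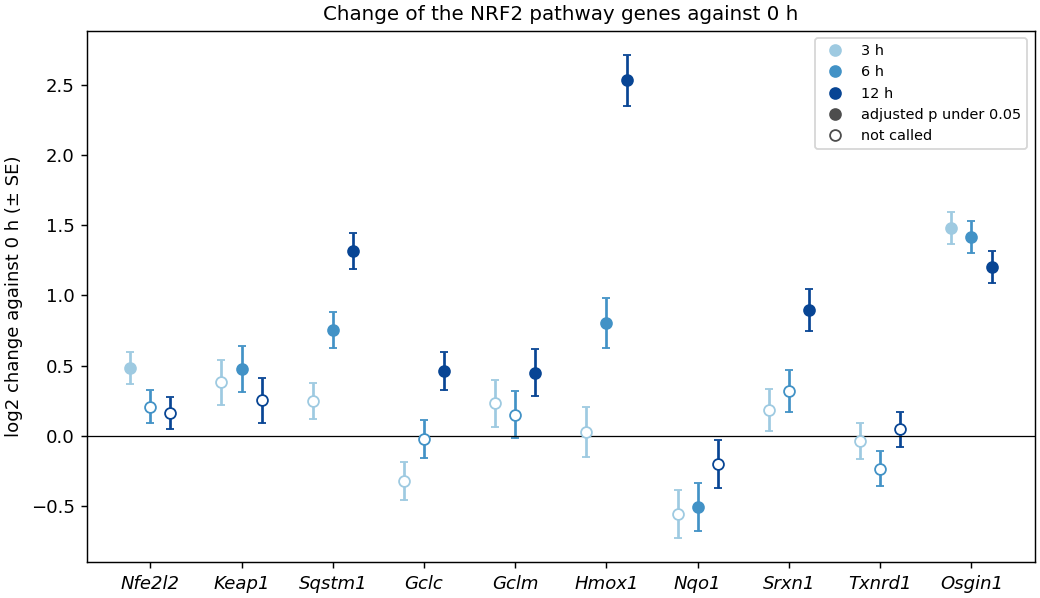
Log2 change of each gene at 3, 6 and 12 h against 0 h, with bars of ± 1 SE from the fit; filled points have an adjusted p under 0.05. Osgin1 is highest at 3 h (1.48), Sqstm1, Hmox1 and Srxn1 are highest at 12 h (1.32, 2.53 and 0.90), and Nqo1 lies below 0 at all 3 times.

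Of the genes of glutathione synthesis, Gclc and Gclm rose at 12 h by small amounts. Gclc encodes the catalytic subunit of glutamate-cysteine ligase, the rate-limiting enzyme of the pathway, and Gclm encodes its modifier subunit. Gclc had signals of 683.2 and 581.1 at 0 h, 493.1 and 513.4 at 3 h, 635.7 and 607.2 at 6 h, and 932.2 and 813.1 at 12 h. The 12 h arrays were the highest, the 3 h arrays the lowest, and the 0 and 6 h arrays overlapped. Gclc rose by 0.46 ± 0.13 at 12 h (adjusted p = 0.0156), with changes of -0.32 ± 0.13 at 3 h and -0.02 ± 0.13 at 6 h that did not pass (adjusted p = 0.152 and 0.936). Leaving out replicate 2 at 0 h or replicate 1 at 12 h ended the 12 h call (adjusted p = 0.155 and 0.122). The step from 6 to 12 h, 0.48 ± 0.13 (adjusted p = 0.0592), passed with the same median (0.0348) and the stricter filter (0.0498). The other probe set of Gclc, which can bind several transcripts, had a change of 0.33 at 12 h that did not pass (adjusted p = 0.0786) and showed no dip at 3 h, with 500.6 and 485.8 against 442.9 and 430.3 at 0 h.

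Gclm had signals of 517.6 and 495.5 at 0 h, 609.1 and 583.7 at 3 h, 588.8 and 536.8 at 6 h, and 571.4 and 844.5 at 12 h. All treated arrays lay above the 0 h arrays, but the 12 h arrays were far apart and overlapped those of 3 and 6 h. The rise of 0.45 ± 0.17 at 12 h was at the threshold (adjusted p = 0.0486), and the F test over all times did not pass (adjusted p = 0.191). Without replicate 2 at 12 h the change was 0.17 (adjusted p = 0.463), and without replicate 1 at 12 h it was 0.73. The call was also lost without replicate 1 or 2 at 0 h or at 3 h. It was lost as well with quantile normalization (adjusted p = 0.0722), the same median (0.0512), no filter (0.0763) and no intensity trend (0.11). Averaging the probe sets of other genes also ended it (0.0508), though Gclm itself has only 1.

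The thioredoxin and peroxiredoxin branch was split. Srxn1 encodes sulfiredoxin, which reduces overoxidized peroxiredoxins. It had signals of 345.6 and 407.4 at 0 h, 438.0 and 416.4 at 3 h, 513.2 and 429.5 at 6 h, and 738.2 and 673.9 at 12 h. The 12 h arrays lay above all others, and the 3 and 6 h arrays overlapped. Srxn1 rose by 0.90 ± 0.15 at 12 h (adjusted p = 0.000383), and by 0.55 as the mean of its 4 probe sets. Its changes of 0.18 ± 0.15 and 0.32 ± 0.15 at 3 and 6 h did not pass (adjusted p = 0.486 and 0.141). The step of 0.58 ± 0.15 from 6 to 12 h was called (adjusted p = 0.0436), but not without any 1 of 7 arrays, all but replicate 1 at 6 h (adjusted p between 0.0599 and 0.219), with no filter (0.0719), no intensity trend (0.115) or only the 6 and 12 h arrays (0.0875). As that mean the step was 0.24 (adjusted p = 0.555). Another Srxn1 probe set, which can bind several transcripts, rose at 12 h by 0.68 (adjusted p = 0.00948 over all probe sets), with 490.9 and 550.3 against 348.5 and 294.4 at 0 h. The remaining 2 stood at 0.19 and 0.42 and missed it (adjusted p = 0.564 and 0.554), and 1 of them was dim, at 27.8 to 99.3 over the 8 arrays.

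Txnrd1, the cytosolic thioredoxin reductase gene, had signals of 3364.2 and 3177.8 at 0 h, 3367.0 and 3019.3 at 3 h, 2445.5 and 3152.6 at 6 h, and 3379.0 and 3369.4 at 12 h. The 0 and 3 h arrays overlapped, both 6 h arrays lay below the 0 h arrays, and replicate 1 at 6 h was the lowest of all. The changes of -0.04 ± 0.13, -0.24 ± 0.13 and 0.05 ± 0.13 at 3, 6 and 12 h did not pass (adjusted p = 0.896, 0.198 and 0.815). Without replicate 2 at 6 h, which leaves the low array alone at that time, the change at 6 h was -0.42 (adjusted p = 0.0239) and the step from 6 to 12 h was 0.46 (adjusted p = 0.046). The other 2 probe sets of Txnrd1 had changes of 0.14 and 0.25 at 12 h (adjusted p = 0.523 and 0.386). Of the 3 listed starts of this gene only 1 holds a TGACNNNGC match in its window.

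Nqo1 was the only member called lower, and only at 6 h. It encodes a quinone reductase and is a common marker of NRF2 activity. Its signals were 398.0 and 431.9 at 0 h, 308.9 and 252.8 at 3 h, 322.7 and 259.3 at 6 h, and 377.6 and 340.9 at 12 h. All 6 treated arrays lay below both 0 h arrays, and the 12 h arrays lay above those of 3 and 6 h. Nqo1 fell by 0.51 ± 0.17 at 6 h (adjusted p = 0.0433), but the F test over all times did not pass (adjusted p = 0.0543). Its changes of -0.56 ± 0.17 at 3 h and -0.20 ± 0.17 at 12 h did not pass (adjusted p = 0.052 and 0.384). The 3 h change passed without replicate 1 or 2 at 6 h and with quantile normalization (adjusted p = 0.0318). It also passed with the same median (0.021), the stricter filter (0.044) and only the 2 times in the fit (0.0338). Averaging the probe sets of other genes gave a call too (0.0449), though Nqo1 itself has only 1. The 6 h call was lost without replicate 1 or 2 at 0 h (0.114 and 0.209), replicate 2 at 6 h (0.22), with no filter (0.0798) or no intensity trend (0.0677).

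By probe set, 2 of 17 were called at 3 h, 3 at 6 h and 6 at 12 h, all higher, against 9.06%, 22.6% and 34.7% of all 14266 probe sets tested. The 6 called at 12 h were those of Sqstm1, Hmox1 and Osgin1, 2 of the 4 of Srxn1 and 1 of the 2 of Gclc, while Gclm (adjusted p = 0.0609) was not called on this basis. At 6 h Nqo1 (adjusted p = 0.0543) and the brighter probe set of Keap1 (0.0567) were not called on this basis either. Over the 8 arrays, which share 4 times and so move in steps, the log2 signals of Sqstm1 and Srxn1 correlated at 0.96 and those of Sqstm1 and Hmox1 at 0.90, as a description. Nfe2l2 and Nqo1 correlated at -0.84, and Nqo1 was nearly as low with Keap1 (-0.77) and Osgin1 (-0.76). These pairs were named from the ends of the range of all member pairs. Other pairs lay near 0, such as Sqstm1 and Nqo1 (-0.02). Among tested genes outside the set whose range of time means was at least 0.5 of the member's own, those most like Hmox1 by Pearson correlation over the 8 arrays were Phyhipl (0.98), Nmt2 (0.96) and Etv5 (0.95). Those most like Nfe2l2 were Ier5 (0.96), Zfp790 (0.96) and Cdip1 (0.95). Those most like Gclm were Nfatc2ip (0.92), Dmac2 (0.92) and Adipor2 (0.91), and those most like Nqo1 were BC028528 (0.94), Nipsnap1 (0.93) and Siva1 (0.93).

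Of 14 tested regulators and partners of NRF2 5 were higher and 6 lower at 12 h, against 20.9% and 17.5% of all genes, at a median change of -0.06, against 0.06 over all genes. All 3 small MAF genes, whose proteins pair with NRF2, with BACH proteins or with each other, were higher. Maff had signals of 142.5 and 163.5 at 0 h, 630.1 and 644.4 at 3 h, 843.8 and 812.0 at 6 h, and 986.3 and 1115.0 at 12 h, and rose by 2.01 ± 0.14, 2.38 ± 0.14 and 2.72 ± 0.14 at 3, 6 and 12 h (adjusted p = 4.9e-07, 6.55e-08 and 1.46e-08). All treated arrays of Maff lay above the 0 h arrays. Mafg rose by 1.27 ± 0.15 at 12 h, with 650.3 and 616.2 against 240.9 and 274.3 at 0 h (adjusted p = 2.41e-05), and by 0.64 as the mean of its probe sets. Mafk, chosen after its values were seen like Nfe2l1 and Gsk3b, rose by 0.69 ± 0.21 at 12 h (adjusted p = 0.021), but not without the intensity trend (0.0875), the second array of 0 h (0.228) or the first of 12 h (0.172). Nfe2l1, which encodes the related factor NRF1, rose by 0.75 ± 0.11 (adjusted p = 0.000215), and Gsk3b, a kinase gene that promotes NRF2 degradation, by 0.98 ± 0.17 (adjusted p = 0.000579).

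The genes of the competitors were lower. Bach1, which encodes a heme-binding repressor of Hmox1, had signals of 851.2 and 917.9 at 0 h, 802.4 and 729.0 at 3 h, 587.8 and 580.4 at 6 h, and 379.5 and 395.3 at 12 h. Both arrays of each later time lay below both of the time before. Bach1 fell by 0.59 ± 0.13 at 6 h and by 1.17 ± 0.13 at 12 h (adjusted p = 0.00393 and 1.21e-05). Its relative Bach2 was dim at 12 h, with 11.3 and 36.0 against 185.1 and 147.1 at 0 h, and fell by 2.57 ± 0.40 (adjusted p = 0.000231). Both 12 h signals are below 47.6, the signal at the filter, and the size of the fall is uncertain (-3.17 to -1.87 over the alternatives). Nfe2l3, which encodes the related factor NRF3, fell by 1.42 ± 0.19 at 12 h, with 114.2 and 127.8 against 368.4 and 307.8 at 0 h (adjusted p = 6.97e-05), and by 0.90 as the mean of its probe sets. Cul3, the scaffold of the KEAP1 ligase, had a change of 0.12 ± 0.11 at 12 h that did not pass (adjusted p = 0.443), with 1605.4 and 1820.2 against 1626.4 and 1524.2 at 0 h. The remaining lower regulators and partners at 12 h were Crebbp, Dpp3 and Syvn1, named after their values were seen. They fell by 1.01 ± 0.18, 0.94 ± 0.12 and 0.53 ± 0.15 (adjusted p = 0.000683, 4.11e-05 and 0.0138).

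**Figure D3:**
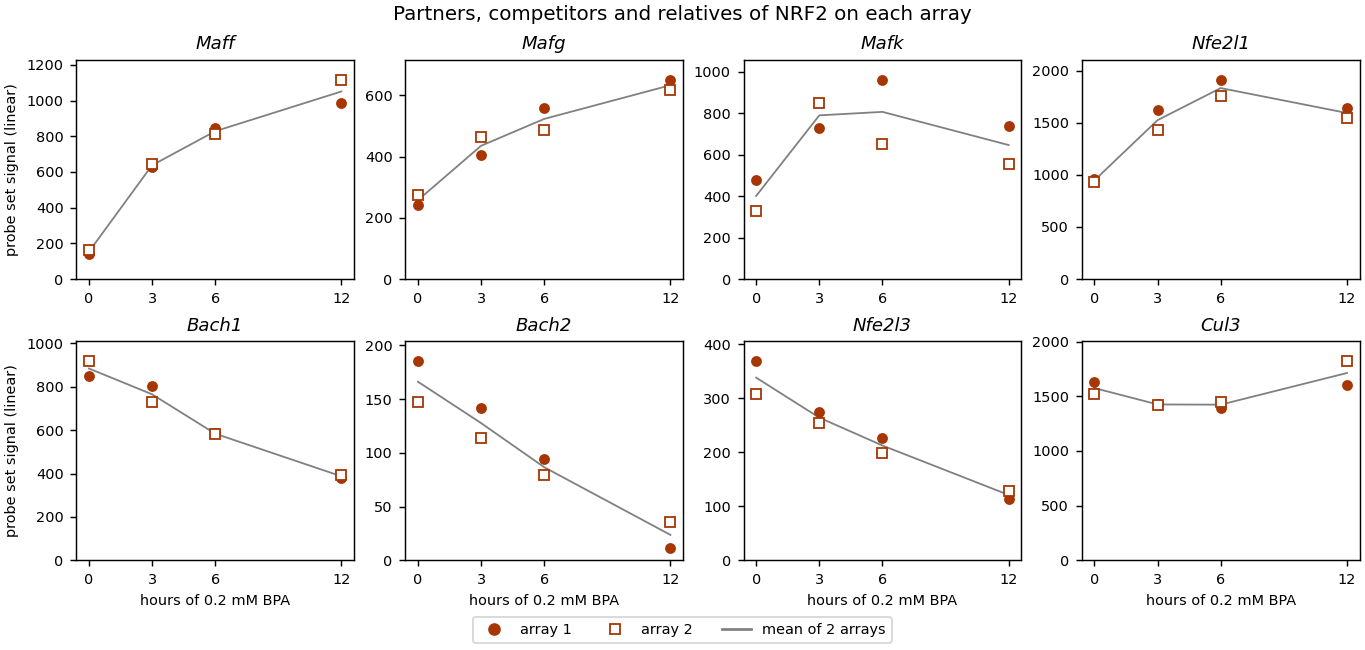
Probe set signal (linear axis from 0) of 8 partners, competitors and relatives of NRF2 against hours of 0.2 mM BPA, with 1 symbol per array and a line through the means of 2 arrays. Maff and Mafg are highest at 12 h, Bach1, Bach2 and Nfe2l3 are lowest at 12 h, and the arrays of Cul3 overlap between 0 and 12 h.

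Glutathione supply and use changed in both directions around the small rise of Gclc. Of 13 tested genes 6 were higher and 4 lower at 12 h, against 20.9% and 17.5% of all genes, at a median change of 0.33. Slc7a11, the cystine transporter subunit and a textbook NRF2 and ATF4 target, rose by 3.12 ± 0.37, with 369.1 and 330.5 at 12 h against 18.7 and 55.8 at 0 h (adjusted p = 2.81e-05). Its mean at 0 h is below the filter, which equals a signal of 47.6, so it passed through the later times and the size of the rise is uncertain (2.49 to 3.75 over the alternatives). Its partner subunit Slc3a2 rose by 2.39 ± 0.12, with 9391.9 and 7660.8 against 1532.9 and 1686.5 (adjusted p = 1.39e-08). Chac1, which encodes an enzyme that breaks glutathione down, rose by 3.86 ± 0.13, with 4550.3 and 4172.7 against 304.8 and 279.7 (adjusted p = 4.02e-10). Gss, the glutathione synthetase gene, had a change of 0.31 ± 0.18 that did not pass (adjusted p = 0.202).

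The 4 lower genes of that list were Gpx8, Glrx, Gsr and Gpx4, while the higher genes other than Slc7a11, Slc3a2 and Chac1 are not named. Glrx and Gpx4 were chosen after their values were seen. The probe set read for Gpx4 can also bind related genes. Gpx8, a peroxidase gene of the endoplasmic reticulum, fell by 2.85 ± 0.15, with 159.7 and 196.5 at 12 h against 1340.6 and 1315.5 at 0 h (adjusted p = 1.94e-08). Gsr, the glutathione reductase gene, fell by 0.49 ± 0.13 (adjusted p = 0.00977), a call that leaving out the first array of 0 h (0.105) or of 12 h (0.0559) ended. The glutaredoxin gene Glrx fell by 0.85 ± 0.23 (adjusted p = 0.0111) and lost its call without the same arrays (0.111 and 0.0587). Gpx4, the lipid peroxidase gene, fell by 0.48 ± 0.12 (adjusted p = 0.00779) and lost its call without the second array of 0 h (0.0837) or of 12 h (0.0709) or as the mean of its probe sets (-0.24, 0.106).

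Most called genes of thioredoxin and peroxiredoxin reduction outside the members were lower. Of 13 tested, 1 was higher and 5 lower at 12 h, against 20.9% and 17.5% of all genes, at a median change of -0.26. The higher gene was Txnip, which encodes an inhibitor of thioredoxin, at 1.51 ± 0.13, with 1762.8 and 1666.3 against 659.9 and 541.9 at 0 h (adjusted p = 2e-06). Prdx2, a substrate of sulfiredoxin, fell by 1.09 ± 0.11, with 2344.7 and 2654.1 against 5555.5 and 5094.7 (adjusted p = 6.31e-06). The sestrin genes Sesn1 and Sesn3 fell by 1.0 ± 0.12 and 0.90 ± 0.20 (adjusted p = 3.28e-05 and 0.00283). Prdx4, chosen after its values were seen, fell by 0.41 ± 0.10 (adjusted p = 0.00679) and lost its call without replicate 1 at 0 h (0.0708) or as the mean of its probe sets (0.0618). Txn1, the substrate of Txnrd1, fell by 0.30 ± 0.10 (adjusted p = 0.0335), a call lost without any 1 of the 0, 3 or 12 h arrays (0.0595 to 0.182), with no filter (0.0865), no intensity trend (0.0827) or averaged probe sets (0.134). Of the superoxide and peroxide removal genes Sod1, Sod2, Sod3, Cat and Ccs, all 5 tested, 0 were called in either direction at 12 h (limma; 0 at an unadjusted p under 0.05).

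Detoxification and export genes, the group to which Nqo1 belongs by function, were mostly lower. Of 16 tested 0 were higher and 12 lower at 12 h (limma; 0 and 12 at an unadjusted p under 0.05), against 20.9% and 17.5% of all genes, at a median change of -0.64. The glutathione transferase gene Gstm1 fell by 2.80 ± 0.13, with 375.7 and 411.1 at 12 h against 2501.1 and 3109.1 at 0 h (adjusted p = 1.1e-08). Its probe set can also bind related genes, as can that read for Tkt below. Mgst1, a microsomal transferase gene, fell by 1.49 ± 0.11 (adjusted p = 3.52e-07) and Gstp1 by 1.0 ± 0.11 (adjusted p = 1.22e-05). Ephx1, the microsomal epoxide hydrolase gene, fell by 1.40 ± 0.11, with 1188.7 and 1331.1 against 3284.0 and 3403.6 (adjusted p = 7.85e-07). Of 8 NADPH supply genes 0 were higher and 4 lower at 12 h (limma; 0 and 5 at an unadjusted p under 0.05), against the same 20.9% and 17.5%, at a median change of -0.28: Idh1 fell by 1.11 ± 0.11, Pgls by 0.73 ± 0.15, Nnt by 0.58 ± 0.12 and Tkt by 0.34 ± 0.11 (adjusted p = 6.95e-06, 0.00202, 0.00147 and 0.0206). The call of Tkt, a pentose phosphate enzyme, was lost without replicate 1 at 0 h (0.202), replicate 1 or 2 at 12 h (0.0593 and 0.0878), without the intensity trend (0.0663) or as the mean of its probe sets (0.0731).

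**Figure D4:**
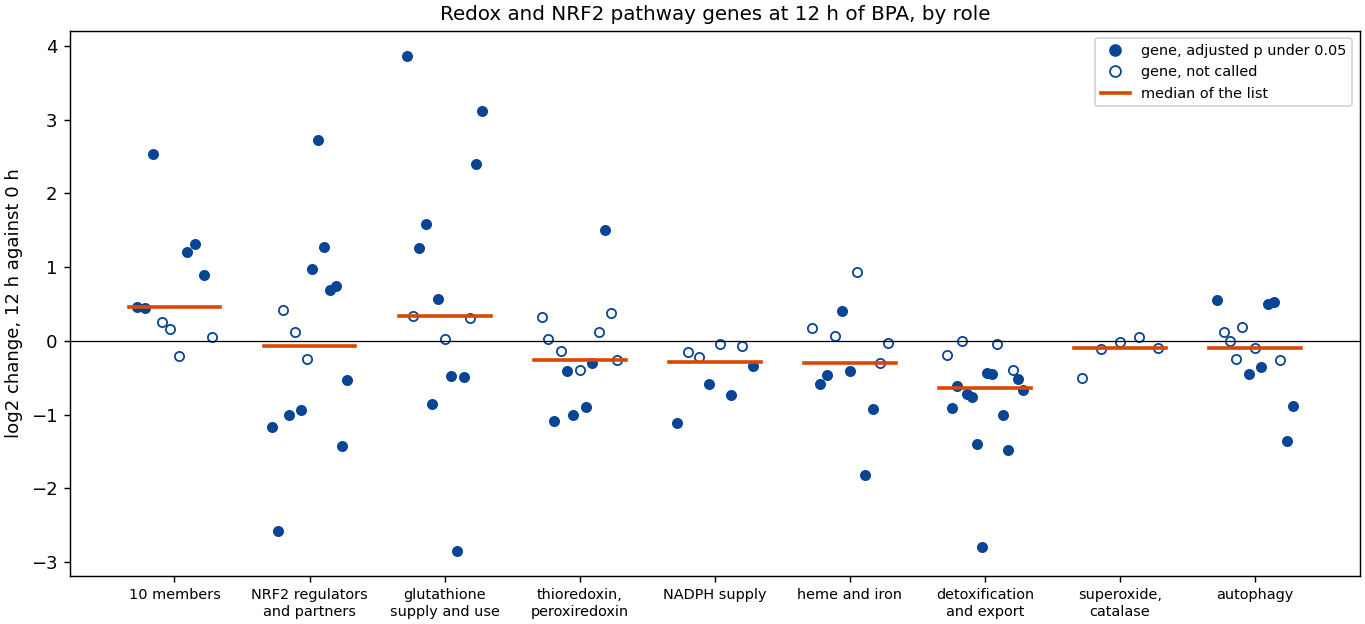
Log2 change at 12 h against 0 h of every tested gene, by role, with the 10 members at the left; filled points have an adjusted p under 0.05 and the bar is the median of the list. The members have a median of 0.46, the detoxification and export genes one of -0.64 with 0 higher, and the glutathione list spans -2.85 to 3.86.

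Genes that act beside Hmox1 on heme and iron were mostly lower where they were called. Of 11 tested 1 was higher and 5 lower at 12 h, against 20.9% and 17.5% of all genes, at a median change of -0.30. Hmox2, which encodes the constitutive heme oxygenase, fell by 0.41 ± 0.11, with 1098.1 and 1063.1 at 12 h against 1493.7 and 1385.8 at 0 h (adjusted p = 0.0119), and lost its call without the first array of 0 h (0.102) or the second of 12 h (0.0599). The biliverdin reductase genes Blvra and Blvrb fell by 0.59 ± 0.13 and 0.46 ± 0.14 (adjusted p = 0.0025 and 0.0181). The call of Blvrb was lost without replicate 1 or 2 at 0 h (0.0806 and 0.0909), replicate 2 at 12 h (0.127), and also without the intensity trend (0.0557). Ireb2, the gene of an iron regulatory protein, fell by 1.82 ± 0.18, with 209.0 and 182.3 against 668.5 and 752.5 (adjusted p = 6.61e-06). Slc40a1, the iron exporter gene, fell by 0.92 ± 0.28 (adjusted p = 0.0204) and was not called without replicate 1 or 2 at 0 h (0.115 and 0.0777), replicate 1 at 12 h (0.104) or the filter (0.0559). The higher gene was Fth1, the ferritin heavy chain, named after its values were seen, at 0.40 ± 0.12 (adjusted p = 0.0193). It missed the threshold without replicate 1 or 2 at 0 h (0.0719 and 0.11), replicate 1 at 12 h (0.191), with quantile normalization (0.0823), no filter (0.102) or no intensity trend (0.0676).

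Of 13 tested autophagy genes other than Sqstm1 3 were higher and 4 lower at 12 h, against 20.9% and 17.5% of all genes, at a median change of -0.10. The higher genes were those of the autophagy receptors Nbr1 (0.50 ± 0.11, adjusted p = 0.00299) and Tax1bp1 (0.52 ± 0.12, adjusted p = 0.00349) and of the conjugation factor Atg5 (0.56 ± 0.15, adjusted p = 0.00839). Nbr1 was named after its values were seen, like Gabarapl2 and Map1lc3b. Ulk1, the gene of a kinase that starts autophagy, fell by 1.36 ± 0.17, with 199.8 and 207.3 at 12 h against 520.6 and 548.8 at 0 h (adjusted p = 3.34e-05). Wdfy3, Gabarapl2 and Map1lc3b fell by 0.88 ± 0.21, 0.45 ± 0.11 and 0.36 ± 0.10 (adjusted p = 0.00507, 0.0057 and 0.014). Without replicate 2 at 0 h the calls of Atg5 (0.0588), Wdfy3 (0.0531), Gabarapl2 (0.0603) and Map1lc3b (0.0698) were lost. Without replicate 1 at 0 h those of Tax1bp1 (0.056) and Map1lc3b (0.0851) were lost, and without replicate 1 at 12 h those of Atg5 (0.0672) and Map1lc3b (0.087). As means of their probe sets Tax1bp1 and Map1lc3b stood at 0.27 and -0.21 and missed the threshold (0.416 and 0.265).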

How the data were processed

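RNA of 8 samples of TTE3 cells was measured on 8 one-colour arrays, and the deposited table holds an intensity for every probe set on each array, linear and made by the authors; which software made it is not given in the sources used here. Without the top and bottom 2% all arrays average 500.16 to 500.18, so the authors scaled them and a change in total RNA is not visible. Of 22690 probe sets 64 controls were left out; symbols were updated through Entrez identifiers to the RefSeq table of GRCm38.p6. The log2 of the signal plus 7.9, the 10th percentile of all values, was used, and genes above the 30th percentile of mean log2 signal were kept (8675 of 12393). limma 3.58.1 in R 4.3.3 fitted 1 mean per time over all 8 arrays with an intensity trend (residual df 4, prior df 9.00). All tests were two-sided, and the code was also run on simulated data with known changes. Alternatives are named beside the members' calls and the 12 h calls of other genes that they change. None are given for Crebbp, Dpp3 and Syvn1. The replicate block is given in the closing section.

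The members and the role lists were chosen with earlier results of these data known. From each role list up to 4 called genes at 12 h were named by size, plus Chac1, Slc7a11, Bach1, Cul3, Mafg, Gsr, Gss, Txn1 and Hmox2 whatever their result, and up to 3 genes most like Nfe2l2, Hmox1, Gclm and Nqo1; other names are marked as chosen after their values were seen. Sequences are from RefSeq.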

Additional observations from a re-analysis of the deposited data

Results flagged for a closer look

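Of the 10 genes, 3 had an effect against 0 h that differed between 6 and 12 h by the test of the step itself (limma, adjusted p under 0.05), all upward. The step was 1.73 for Hmox1, 0.58 for Srxn1 and 0.56 for Sqstm1 on the log2 scale, with both 12 h arrays above both 6 h arrays in each. The step of Hmox1 was called in every alternative tried, and those of Srxn1 and Sqstm1 were not. No effect differed between 3 and 6 h by this test. Groups of 2 arrays are too small to look for a single outlying array.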

How the results depend on the processing

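Over the 5 comparisons of the 10 genes and 18 alternatives, 828 of 900 values kept their side of the threshold. Of the rest, 51 lost a call, 21 gained one and 0 changed sign with a call. Changes of sign in values that were not called are not counted here. Hmox1 at 3 h, for example, was 0.03 in the main fit and -0.20 at the lowest with 1 array left out. Of 2361 values of 44 other named genes, without Crebbp, Dpp3 and Syvn1, 126 lost a call and 39 gained one. A called change turned its sign in 1 value, Mgst1 at 3 h as the mean of its probe sets, 0.027. Values that were not called could change sign here too, such as Slc7a11 at 3 h, 0.41 in the main fit and -0.22 at the lowest with 1 array left out. Among the members, the rises of Hmox1, Sqstm1 and Srxn1 at 12 h, of Sqstm1 at 6 h and of Osgin1 at all 3 times passed under every alternative run. Scaling to the same median moved the median change of all genes at 3 h to -0.07, against 0.06, and that of the step from 6 to 12 h to 0.08, against -0.02. With it the split of all called genes was 462 higher and 645 lower at 3 h, against 742 and 306, 1054 and 1199 at 6 h, against 1455 and 844, and 184 and 199 from 6 to 12 h, against 80 and 334.

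Leaving out each array in turn gave 453 to 1280 called genes at 3 h, 1377 to 2335 at 6 h, 2353 to 3551 at 12 h, 30 to 129 from 3 to 6 h, 154 to 428 from 6 to 12 h and 2079 to 3494 over the time course. Of the members it gave 1 to 3 at 3 h, 2 to 5 at 6 h, 4 to 6 at 12 h, 0 to 1 from 3 to 6 h and 1 to 3 from 6 to 12 h, and 4 to 6 member probe sets at 12 h. Where 1 array of a time is left, it is assumed to vary like the others.

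Without the intensity trend 611 genes were called at 3 h, 6 from 3 to 6 h and 114 from 6 to 12 h, and 1, 3 and 1 members at 3 h, at 6 h and from 6 to 12 h. With no filter the steps had 56 and 274 called genes, and 3 members were called at 6 h and 1 from 6 to 12 h. With only the 2 times compared the steps had 61 and 173 called genes, and 1 member was called from 6 to 12 h. Quantile normalization, the same median and the stricter filter each called 1 member from 3 to 6 h. With the replicate number as a block, 226 genes and 2 members (Hmox1, adjusted p = 0.0185, and Sqstm1, 0.028) were called from 3 to 6 h and 703 genes from 6 to 12 h, Gclc among them (0.0328), and Nqo1 was called at 3 h (0.0319). The numbers were not taken to pair the samples: the deviations of same-numbered arrays from their time means correlated at -0.01 to 0.12. The cause of these shifts was not tested.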
